A study of Mus musculus with 6 samples.

Results

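The genes of nuclear hormone receptors were measured in cultured neural progenitor cells grown with either of 2 sets of growth factors. The rule for taking rows used the symbol and no measured value: a row belonged to the set when its symbol was a nuclear receptor symbol starting with Nr, or one of the older names of the retinoid, thyroid hormone, oestrogen, oestrogen-related, peroxisome proliferator, ROR and vitamin D receptors. Of 22057 rows in the deposited table, 40 met this rule, and 38 of them were receptor genes. The other two were Nr2c2ap, which encodes a protein that associates with the receptor Nr2c2, and Nr6a1os, an antisense transcript at Nr6a1. A further 7 symbols of the gene annotation met the rule without having a row (Nr0b1, Nr0b2, Nr1h2-ps, Nr1h4, Nr1h5, Nr2e3 and Nr5a1os) and were not analysed here.

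RNA was sequenced from neural progenitor cells, labelled as p53-null, of mice 62, 68 and 69. Each mouse gave 1 library after 4 days in stem cell medium holding EGF, FGF and heparin (EF, the control of the series design) and 1 library after 4 days with PDGFA, so each group held 3 libraries. The labels give PDGFA at 20 ug/ml, a concentration that is high for a growth factor and whose unit could not be checked here. The p53-null genotype was shared by all 6 libraries, and the deleted part of Trp53, the brain region and the age of the mice are not in the labels. The media differed both in EGF, FGF and heparin and in PDGFA, so every comparison is of the 2 media as a whole, and p-values measure the spread between cultures of 3 animals.

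Summed over the deposited gene rows, the libraries held 27270246 to 39601349 reads. The label was checked against markers: 8 of 8 neural progenitor markers were read, with a summed normalized count of 78128 to 188180 in EF and 52004 to 56533 in PDGFA; 3 of them (Sox2, Prom1 and Msi1) were higher in PDGFA and 4 (Nes, Vim, Hes1 and Fabp7) lower. All 5 markers of dividing cells were lower in PDGFA (sums of 37980 to 77711 against 1636 to 1882), all 8 of maturing oligodendrocytes were higher (2449 to 3864 against 285600 to 361510, with Mog at 0 in every EF library), and 4 of 7 astrocyte markers were higher (44990 to 79672 against 157960 to 265450). The part that these marker shifts have in the receptor values below was not tested, and in bulk RNA fewer cells of a type and less RNA per cell cannot be told apart. Oligodendrocyte precursor markers summed to 79077 to 146030 and 118860 to 195080, with 2 of 6 higher and 3 lower. Neuron markers summed to 25061 to 30550 and 29204 to 39349, and 2 of the 6 tested were higher, Dcx (131 ± 186 to 4934 ± 941, adjusted p = 0.0018) and Tubb3 (187 ± 82.1 to 765 ± 333, 0.0114), with none lower. Sums were low for microglia (11.5 to 44.7 and 5.73 to 8.96, with Aif1, Cx3cr1, Tmem119, Ptprc, C1qa and Itgam having no row), for endothelial cells (104.8 to 458.2 and 440.5 to 705.1, Cdh5 and Cldn5 having no row; Kdr was higher and Pecam1 lower in PDGFA) and for pericytes and fibroblasts (86.9 to 177.9 and 802.1 to 962.5, Dcn and Lum having no row; Pdgfrb and Rgs5 were higher and Col1a1 lower).

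Nuclear receptors are transcription factors that bind DNA through zinc fingers and, in many members, a fat-soluble ligand such as thyroid hormone, retinoic acid, a steroid, an oxysterol or a fatty acid. Many bind as a pair with a retinoid X receptor at repeats of a short half-site, others bind as pairs of themselves, and the orphan members bind DNA without a known hormone. In the glial lineage, thyroid hormone and retinoid receptors are known for their part in the timing of oligodendrocyte formation, and Nr2e1 for keeping neural stem cells.

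Of the 40 rows, 36 had a mean of at least 10 normalized counts over the 6 libraries and were tested; Esr1, Esr2, Nr5a1 and Vdr did not reach it. A normalized count is a read count divided by the size factor of its library, and a gene was called when its adjusted p in limma, with Benjamini-Hochberg adjustment over all 17068 tested genes, was under 0.05. Values were compared as log2(normalized count + 1), a scale on which changes of sparsely read genes come out too small. In PDGFA 5 receptors rose (Pparg, Nr3c2, Thra and Rxrb among them) and 5 fell (Esrrb, Nr5a2, Esrrg, Esrra and Nr2f6), which is 13.9% of the tested rows in each direction. Across all tested genes 21.8% were called higher and 18% lower. Together 27.8% of the tested rows were called, against 39.8% of all tested genes. Every PDGFA library lay above every EF library in 10 of the 36, and below in 6, where all tested genes gave 29.2% and 26.3%. The median log2 fold change (PDGFA minus EF) of the 36 was 0.04, beside -0.0095 over all tested genes, and the median size regardless of sign was 0.33 beside 0.61. In 22 of the 36 the log2 fold change was under 0.5 in size. Without the PDGFA library of mouse 68, or both libraries of that mouse, 3 rows were called higher, and without both libraries 3 were called lower. Over all tested genes 3720 were called higher and 3076 lower with all libraries. Without the PDGFA library of mouse 68 the count higher was 2245, and without both libraries the counts were 1943 and 1333.

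**Figure D1:**
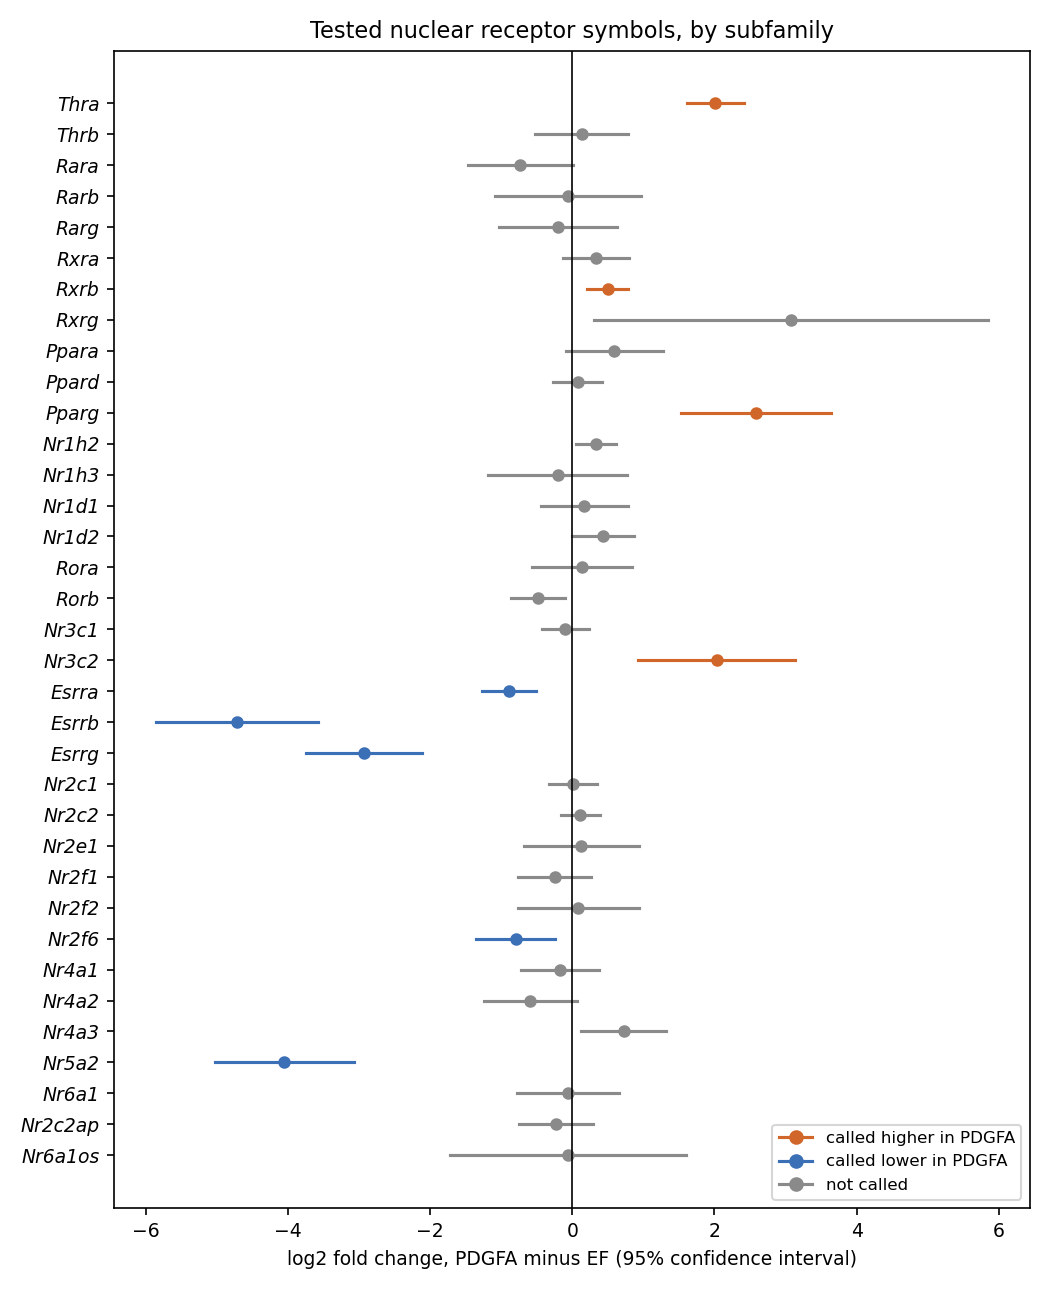
The log2 fold change of 35 of the 36 tested rows (horizontal axis, PDGFA minus EF, of log2(normalized count + 1)) with its 95% confidence interval from limma, ordered by subfamily. Those called higher (4 shown) are orange, the 5 called lower blue, and the 26 not called grey; the 3 oestrogen-related receptors lie to the left of 0, and Rxrg has the widest interval, from 0.30 to 5.85.

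Of the thyroid hormone receptors Thra rose and Thrb was not called. Thra, which encodes the alpha receptor (chromosome 11, 98740638 to 98769006, GRCm38), had 4187, 6193 and 5107 normalized counts in the EF libraries of mice 62, 68 and 69, and 19262, 21587 and 21052 in their PDGFA libraries. The groups were far apart, with means of 5162 ± 1004 and 20634 ± 1218 (SD, n = 3) and a limma adjusted p of 0.000136 for a log2 fold change of 2.02 (SE 0.17). Thrb, the beta receptor, had means of 427.9 ± 124 and 467.6 ± 119, overlapping groups and a change of 0.13 on the log2 scale (95% interval -0.52 to 0.79, adjusted p = 0.731). The difference between the 2 responses was not itself tested. The strand setting of the counting is not given in the sources used here. Reads where genes of opposite strands overlap may therefore count for either gene or for neither, and which of these holds was not tested. Thra and Nr1d1, on opposite strands, share 263 bases of exon, 5.7% of the Thra exon length and 8.55% of that of Nr1d1. Nr1d1 was not called, and reads of the 2 genes cannot be told apart there.

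Retinoic acid receptors bind the vitamin A derivative, and none of the 3 was called. Rara stood at 651.2, 1473 and 1308 in EF and at 545.7, 643.6 and 781.3 in PDGFA, with a log2 fold change of -0.73 (SE 0.32; limma adjusted p = 0.106). It was lower in all 3 pairs of libraries, yet the EF value of mouse 62 lay inside the PDGFA range. With the mouse as a replicate block its adjusted p was 0.0498, and without the EF library of mouse 62 it was 0.0046 (0.0046 to 0.442 over all alternatives). Rarb (35.9 ± 16.7 against 33.4 ± 10.6) and Rarg (164.7 ± 65.9 against 136.6 ± 25.3) had log2 fold changes of -0.06 and -0.20. Rarb shares 34.1% of its exon length with Top2b on the opposite strand, a gene at 10921 ± 1225 and 12547 ± 2704.

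The retinoid X receptors are the shared partners of the thyroid hormone, retinoic acid, vitamin D, liver X and peroxisome proliferator receptors. Rxrb (chromosome 17, 34031812 to 34038399) rose by 0.50 on the log2 scale (SE 0.12, adjusted p = 0.016), from 1186, 1242 and 1289.9 in EF to 1670.3, 1768 and 1808 in PDGFA. These groups were tight and far from overlapping, with means of 1239 ± 52.2 and 1749 ± 70.9. As a paired comparison, with the mouse as a replicate block, it was not called (adjusted p = 0.0572). Unpaired, the adjusted p was 0.0558, 0.0922 and 0.0677 without the PDGFA library of mouse 62, 68 or 69 (0.00082 to 0.185 over all alternatives).

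Rxrg, the gamma member, was read at 2.87, 11.3 and 0 in EF and at 82.3, 52.5 and 5.38 in PDGFA. The PDGFA libraries of mice 62 and 68 stood apart from that of mouse 69, which lay within the EF range, and the EF values rest on 3, 10 and 0 reads. Its log2 fold change of 3.08 (SE 1.19) had an adjusted p of 0.0755. It was called with the mouse as a replicate block (adjusted p = 0.0102), without the EF library of mouse 68 (0.048) and without the PDGFA library of mouse 69 (0.0286), where the log2 fold change was 3.96 and 4.20 (0.0102 to 0.261 over all alternatives). Rxra had 1440 ± 352 and 1785 ± 234 and a log2 fold change of 0.33 (adjusted p = 0.227), called without the EF library of mouse 69 (0.0357; 0.0357 to 0.786).

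Among the peroxisome proliferator-activated receptors, which sense fatty acids, Pparg rose and the other two were not called. Pparg (chromosome 6, 115360951 to 115490399) was read at 10.5, 18 and 7.67 in EF and at 48.4, 83.1 and 96.8 in PDGFA. All PDGFA values lay above all EF values, on 6 to 16 reads per EF library, and the log2 fold change was 2.58 (SE 0.45, adjusted p = 0.0036). Ppara, known for fatty acid oxidation, had 71.3 ± 11.4 and 108.3 ± 22.2; its groups did not overlap, but its log2 fold change of 0.59 had an adjusted p of 0.148. Ppard had 1465 ± 199 and 1534 ± 89.8 and a log2 fold change of 0.07 (95% interval -0.28 to 0.42).

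Of 3 RefSeq start windows of Pparg on GRCm38.p6, each running from 250 bases before a start to 50 after it, 2 hold the receptor half-site AGGTCA. They are shown because a half-site of this kind is a unit that many of the receptors bind. Of all such windows, over every gene listed, 16.3% hold AGGTCA. In these 2 windows the capitals mark it, and its first base lies 28 and 9 bases before the start. The windows are a description of sequence, and binding was not measured.
Pparg, chr6:115360894-115361193, plus strand: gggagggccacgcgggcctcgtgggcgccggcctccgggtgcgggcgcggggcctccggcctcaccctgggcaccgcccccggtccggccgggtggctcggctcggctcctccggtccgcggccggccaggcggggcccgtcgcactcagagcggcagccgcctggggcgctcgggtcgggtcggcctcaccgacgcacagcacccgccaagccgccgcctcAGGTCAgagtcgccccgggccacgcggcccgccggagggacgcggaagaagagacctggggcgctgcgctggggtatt
Pparg, chr6:115362099-115362398, plus strand: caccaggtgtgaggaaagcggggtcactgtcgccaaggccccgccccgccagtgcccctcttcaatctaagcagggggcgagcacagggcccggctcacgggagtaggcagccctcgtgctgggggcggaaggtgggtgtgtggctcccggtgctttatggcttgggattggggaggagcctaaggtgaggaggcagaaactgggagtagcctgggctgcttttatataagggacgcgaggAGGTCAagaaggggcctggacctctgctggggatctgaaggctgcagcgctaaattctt

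Liver X receptors sense oxysterols. Nr1h2 had 1487, 1470.4 and 1631 in EF and 1871, 1961 and 1963 in PDGFA, groups that did not overlap, with a log2 fold change of 0.34 (SE 0.12) and an adjusted p of 0.0609. Without the EF library of mouse 69 the adjusted p was 0.0377, and in edgeR and DESeq2 it was 0.0474 and 0.0292 (0.0292 to 0.389 over all alternatives). Nr1h3 had 44.6 ± 9.98 and 40.6 ± 18.9, a log2 fold change of -0.21 and overlapping groups.

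The vitamin D receptor gene Vdr stayed under the filter, with 2 reads in the 3 EF libraries together and 38 in the 3 PDGFA libraries (0, 1 and 1 against 21, 3 and 14). The ratio of normalized reads was 15.4, with a 95% interval of 3.99 to 132 that covers counting error only. With no filter on low values it was called (limma adjusted p = 0.0245, 6 of the 40 rows then being called higher), and the other 3 genes under the filter were not. The oestrogen receptors were as sparse: Esr1 had 6 and 10 reads (ratio 1.35, interval 0.45 to 4.53) and Esr2 13 and 3 (ratio 0.19, interval 0.034 to 0.68). Nr5a1, steroidogenic factor, had 8 and 5 reads (ratio 0.51, interval 0.13 to 1.76).

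The ROR receptors and the NR1D receptors act on the same response elements, as activators and repressors of the circadian clock. Rorb, known from neurons, was at 6245, 4799 and 7022 in EF and at 4263, 4233 and 4302 in PDGFA. Each PDGFA value lay below each EF value, and the SD was 34.8 in PDGFA and 1129 in EF. Its log2 fold change of -0.48 (SE 0.16) had an adjusted p of 0.0509, just over the threshold. It was called in edgeR (0.0443), in DESeq2 (0.0241) and without the EF library of mouse 68 (0.0131; 0.0131 to 0.183 over all alternatives). Rora, with 1475 ± 579 and 1563 ± 336, had a log2 fold change of 0.14. The repressors Nr1d1 (1372 ± 493 and 1501 ± 292, log2 fold change 0.17) and Nr1d2 (1040.2 ± 198 and 1396 ± 161, 0.44) were not called, with limma adjusted p of 0.639 and 0.101. The groups of Nr1d2 did not overlap. Thra, on the opposite strand, shares 8.55% of the exon length of Nr1d1 and had more counts (5162 ± 1004 and 20634 ± 1218). Reads of the 2 genes cannot be told apart there.

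Of the steroid receptors of the NR3C group, the mineralocorticoid receptor rose and the glucocorticoid receptor was not called. Nr3c2 (chromosome 8, 76899442 to 77245012) was at 109.2, 73.2 and 29.4 in EF and at 210.5, 287.4 and 276.9 in PDGFA. The groups did not overlap, the EF library of mouse 69 was the lowest, and the log2 fold change was 2.03 (SE 0.47, adjusted p = 0.0124). Without the PDGFA library of mouse 68 its adjusted p was 0.0515, and it was 0.0903 without both libraries of that mouse (0.00033 to 0.0903 over all alternatives). Nr3c1, the glucocorticoid receptor, had 3115 ± 279 and 2919 ± 316 and a log2 fold change of -0.10 (95% interval -0.42 to 0.23).

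The 3 oestrogen-related receptors, orphan factors known for driving genes of mitochondrial metabolism and, in the case of Esrrb, for pluripotent stem cells, all fell. Esrrb (chromosome 12, 86361117 to 86521628) went from 300.7, 311.9 and 832.3 in EF to 18.7, 9.55 and 19.7 in PDGFA. Its EF library of mouse 69 stood well above the others, and the groups were far apart. The log2 fold change was -4.72 (SE 0.49, adjusted p = 0.000319).

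Esrrg (chromosome 1, 187608791 to 188214885) had 142.7, 213.9 and 272.3 in EF and 24.6, 32.5 and 21.5 in PDGFA (log2 fold change -2.92, SE 0.35, adjusted p = 0.000611). Esrra (chromosome 19, 6910977 to 6921813) had 1438, 1502 and 2012 in EF and 884.4, 882.3 and 878.9 in PDGFA, with means of 1651 ± 315 and 881.9 ± 2.75. For both genes the groups were apart in every library, and mouse 69 was the highest in EF. The log2 fold change of Esrra was -0.89 (SE 0.16, adjusted p = 0.0047), and its call was lost without both libraries of mouse 68 (0.0557; 1.37e-05 to 0.0557 over all alternatives).

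The RefSeq windows of the most upstream listed start of each of these 3 paralogs are given because the genes fell together. None of them holds AGGTCA or the E-box CACGTG on either strand, and so no base is in capitals. Over all 32851 windows of 300 bases in the table, 16.3% hold AGGTCA and 7.15% hold CACGTG. No match says only that these letters are not in these windows.
Esrra, chr19:6921759-6922058, minus strand: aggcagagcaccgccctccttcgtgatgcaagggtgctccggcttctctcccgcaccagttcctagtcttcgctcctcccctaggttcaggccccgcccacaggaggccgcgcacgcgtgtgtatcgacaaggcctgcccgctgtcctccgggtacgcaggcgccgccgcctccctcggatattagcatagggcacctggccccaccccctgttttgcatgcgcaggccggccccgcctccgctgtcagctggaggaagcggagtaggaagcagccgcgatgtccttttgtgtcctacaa
Esrrb, chr12:86360867-86361166, plus strand: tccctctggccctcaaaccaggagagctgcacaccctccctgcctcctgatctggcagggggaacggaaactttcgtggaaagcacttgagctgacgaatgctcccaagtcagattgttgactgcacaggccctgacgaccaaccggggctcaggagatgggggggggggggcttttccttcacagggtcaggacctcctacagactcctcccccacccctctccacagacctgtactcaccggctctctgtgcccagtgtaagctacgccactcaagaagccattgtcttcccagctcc
Esrrg, chr1:187608756-187609055, plus strand: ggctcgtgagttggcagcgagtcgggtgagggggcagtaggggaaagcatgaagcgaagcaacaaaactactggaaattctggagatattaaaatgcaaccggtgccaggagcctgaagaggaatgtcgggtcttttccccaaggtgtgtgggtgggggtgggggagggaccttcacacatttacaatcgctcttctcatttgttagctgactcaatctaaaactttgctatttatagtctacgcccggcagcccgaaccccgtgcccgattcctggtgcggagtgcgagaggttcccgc

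Nr5a2, an orphan receptor known from embryonic stem cells and the liver (chromosome 1, 136842571 to 136960448), also fell. It was read at 89.1, 46.2 and 83.1 in EF and at 2.55, 3.82 and 3.58 in PDGFA, which were 93, 41 and 65 reads against 3, 4 and 4. The groups were far apart, with few reads behind the PDGFA values, and the log2 fold change was -4.05 (SE 0.42, adjusted p = 0.000316). The window of its upstream RefSeq start holds 1 AGGTCA half-site, in capitals, whose first base is 64 bases before the start; its other listed window holds none.
Nr5a2, chr1:136960399-136960698, minus strand: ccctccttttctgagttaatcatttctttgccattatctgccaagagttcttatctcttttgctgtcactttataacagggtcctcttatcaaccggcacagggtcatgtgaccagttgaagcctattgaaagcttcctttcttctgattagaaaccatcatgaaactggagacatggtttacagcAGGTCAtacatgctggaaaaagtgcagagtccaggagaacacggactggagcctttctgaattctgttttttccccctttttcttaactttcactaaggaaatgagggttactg

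Across the set, 36 of the 40 rows had an entry in the promoter table, with 63 windows in all. AGGTCA, counted on both strands, was in 10 of the 63 windows (15.9%, of 9 genes), close to the 16.3% of all windows. CACGTG was in 4 (6.35%, against 7.15%). The ROR element core TAGGTCA and the longer element TCAAGGTCA of the oestrogen-related receptors, both of which contain AGGTCA, were in 0 of 63, beside 2.61% and 0.423% of all windows, and so were direct repeats of AGGTCA spaced by 1 or 4 bases (0.0396% and 0.0152%).

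Of the orphan receptors of the NR2 group Nr2f6 fell and the others were not called. Nr2f6, a relative of the COUP factors (chromosome 8, 71374123 to 71381960), was at 1516, 1896 and 2912 in EF and at 1224, 1198 and 1084 in PDGFA (log2 fold change -0.80, SE 0.24, adjusted p = 0.0314). No PDGFA value reached the EF range, and the EF library of mouse 69 was the highest. The call was lost without the EF library of mouse 68 (0.0591) and without the PDGFA library of mouse 62, 68 or 69 (0.0755, 0.0876 and 0.102; 0.0055 to 0.143 over all alternatives). Ocel1 shares 1622 bases of exon with Nr2f6 on the opposite strand, 54.4% of the exon length of Nr2f6, and reads of the 2 genes cannot be told apart there. Ocel1 rose in PDGFA (143 ± 38.7 to 410.8 ± 43.2, log2 fold change 1.55, adjusted p = 0.0028), opposite to Nr2f6.

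The COUP factors Nr2f1 (3148 ± 219 and 2718 ± 734) and Nr2f2 (235.7 ± 112 and 238.7 ± 58.6) had log2 fold changes of -0.25 and 0.09. Nr2e1, also called Tlx, a factor of neural stem cells, had 690.5, 1119 and 1865 in EF and 990.5, 1359.7 and 1397 in PDGFA. Its EF libraries spread widely and enclosed all PDGFA libraries, and the log2 fold change was 0.13 (95% interval -0.68 to 0.93, adjusted p = 0.793). The testicular receptors Nr2c1 (693.5 ± 35.6 and 697.01 ± 45.9) and Nr2c2 (4228 ± 195 and 4569 ± 184) had log2 fold changes of 0.0066 and 0.11, with narrow 95% intervals of -0.33 to 0.35 and -0.16 to 0.39. Nr2c2 shares 30.7% of its exon length with Mrps25 on the opposite strand, and Nr2c2ap (497 ± 109 and 420.5 ± 65.2, log2 fold change -0.23) shares 82.4% with Rfxank. Nr6a1, the germ cell nuclear factor, had 355.1 ± 134 and 333.3 ± 75.2 (-0.06), and its antisense transcript Nr6a1os 53.1 ± 37.6 and 43.4 ± 19.0 (-0.06).

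The NR4A receptors are immediate early genes that act without a ligand. Nr4a1 (1281 ± 137 and 1173 ± 396, log2 fold change -0.17) and Nr4a2 (233.8 ± 65.4 and 150.95 ± 15.5, -0.59, adjusted p = 0.133) were not called, though Nr4a2 was without the EF library of mouse 68 (0.041; 0.041 to 0.443). Nr4a3 was at 186.7, 162.1 and 156 in EF and at 329.3, 318 and 204.3 in PDGFA. Its groups did not overlap, with the PDGFA library of mouse 69 closest to EF, and its log2 fold change of 0.72 had an adjusted p of 0.0583. It was called without the EF library of mouse 62 (0.0479) and without the PDGFA library of mouse 69 (0.0354; 0.0207 to 0.359 over all alternatives).

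**Figure D2:**
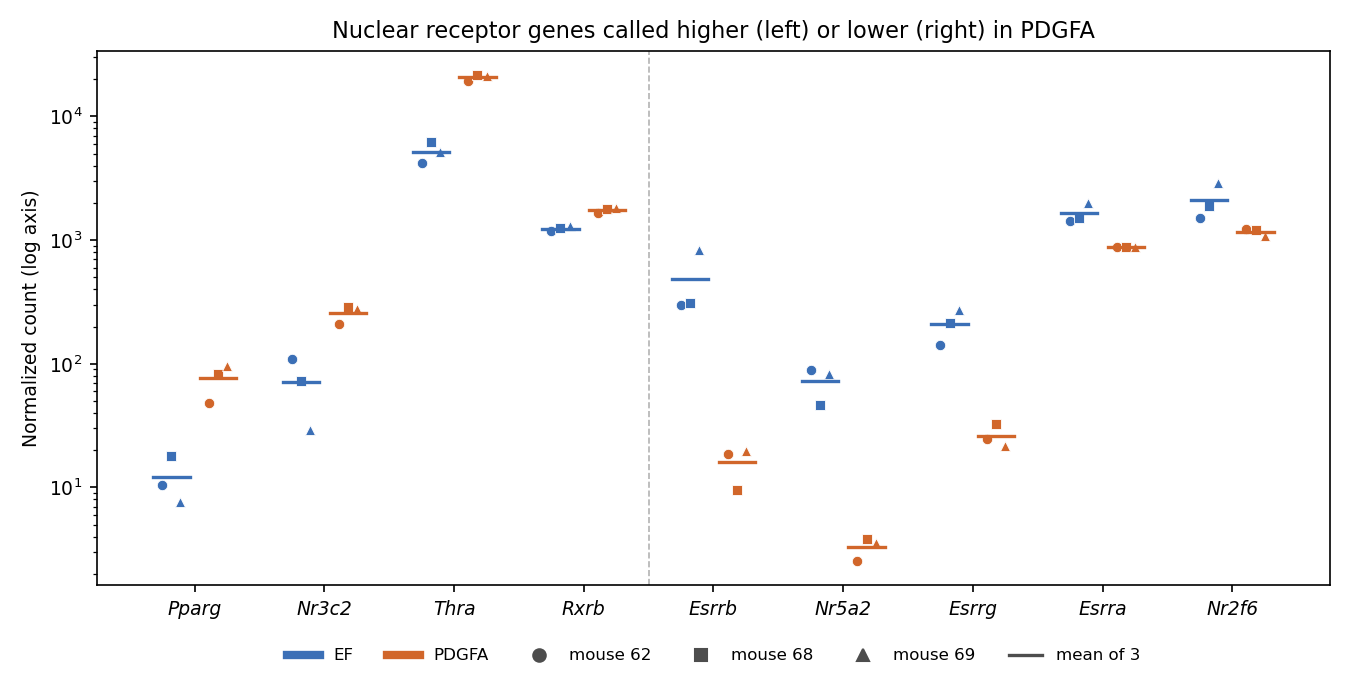
Normalized counts (vertical log axis) of 9 of the 10 called receptors in each library, EF in blue and PDGFA in orange, with the shape giving the mouse and the bar the mean of 3 libraries; the 4 shown that rose are left of the dashed line. In none of the 9 do EF and PDGFA points overlap; Esrra lies between 878.9 and 884.4 in PDGFA, while Esrrb spreads from 300.7 to 832.3 in EF.

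Levels were compared between receptors as normalized counts per kilobase of annotated exon. That length includes bases shared with genes of the opposite strand, 54.4% of it in Nr2f6, 30.7% in Nr2c2, 34.1% in Rarb and 82.4% in Nr2c2ap. Reads there may count for either gene or for neither, so the levels and ranks of these rows are uncertain. Thra had the highest level of the 40 in both media, at 1119 ± 218 in EF and 4472 ± 264 in PDGFA. In EF it was followed by Nr2f6 (706.7 ± 242), Nr2f1 (618.1 ± 43), Rorb (543.7 ± 102), Nr1h2 (456.1 ± 26.4) and Nr1d1 (445.9 ± 160), neighbours that lay within their SDs of each other. In PDGFA the next were Nr1h2 (575.9 ± 15.8), Nr2f1 (533.7 ± 144), Nr1d1 (487.9 ± 94.8), Rxrb (440.2 ± 17.8) and Nr2f6 (391.8 ± 25). Of these, Rxrb and Nr2f6 were apart by more than their SDs and the other neighbours were not. In both media the gap from Thra to the next receptor was larger than the SD of either. Esrrb went from rank 20 to rank 35 and Esrra from rank 8 to rank 17.

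Within subfamilies the paralog make-up was taken per kilobase of exon; these shares are descriptions with no test. The summed level of the oestrogen-related receptors went from 489.7 ± 131 to 207.9 ± 0.79 per kilobase, and Esrra made up 77.8% ± 5.42 of it in EF and 96.7% ± 0.07 in PDGFA. Esrrb went from 15.3% ± 5.36 to 1.27% ± 0.45 and Esrrg from 6.88% ± 1.15 to 2.03% ± 0.44.

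Pparg was 1.87% ± 0.70 of the PPAR total in EF and 9.97% ± 3.19 in PDGFA, with Ppard the largest in both (89.6% ± 1.63 and 79.1% ± 5.13). Nr3c2 was 2.68% ± 1.56 and 9.47% ± 0.60 of the NR3C total, the rest being Nr3c1. The lead paralog was the same in the 2 media in these subfamilies, as it was for Thra (94.9% ± 2.28 and 98.6% ± 0.30), Rara (85% ± 2.10 and 79.7% ± 1.17), Nr1h2 (96.3% ± 0.87 and 97.3% ± 1.18) and Nr4a1 (81% ± 3.42 and 78.6% ± 7.43). Rxrb made up 54.4% ± 4.72 and 56% ± 2.67 of the RXR total and Rxra 45.2% ± 5.11 and 41.4% ± 2.87, with Rxra ahead in the EF library of mouse 69. In the NR2F group Nr2f1 made up 46.7% ± 8.36 in EF and 55.3% ± 5.56 in PDGFA, and Nr2f6 51.3% ± 7.81 and 41.8% ± 5.68, with overlapping libraries. Nr2f6 was ahead of Nr2f1 in the EF library of mouse 69 alone (60.2% against 37.2%). The order of Nr2f1 and Nr2f6 is uncertain, since 54.4% of the exon length of Nr2f6 is shared with Ocel1.

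**Figure D3:**
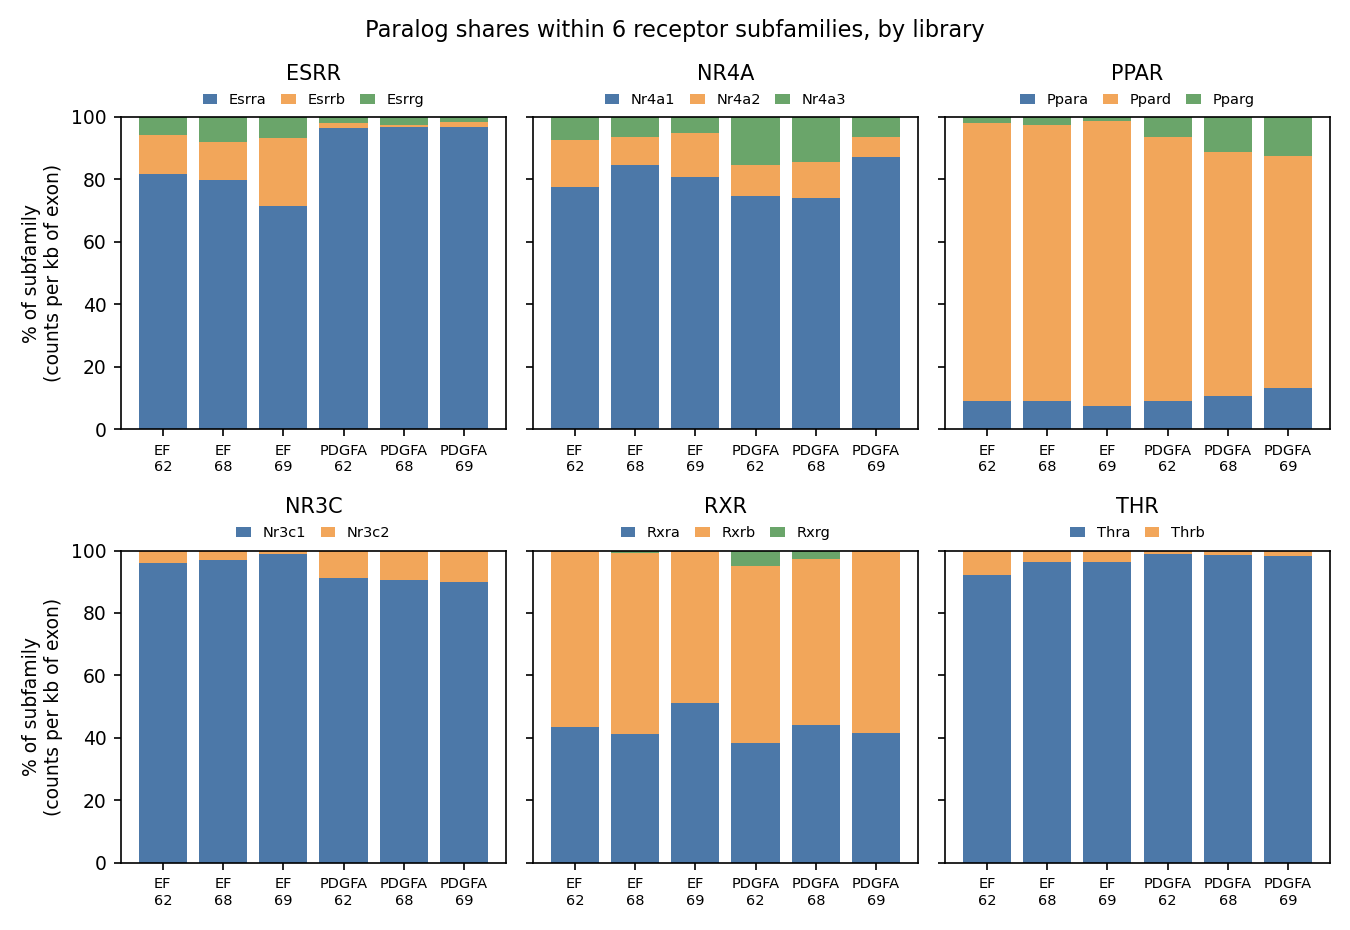
Share of each paralog in its subfamily (vertical axis, % of the summed normalized counts per kilobase of exon), 1 stacked bar per library. The Pparg share is at most 2.54% in EF and 6.36% to 12.4% in PDGFA, and the Esrra share is 71.6% to 81.8% in EF and 96.6% to 96.8% in PDGFA.

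The libraries of EF differed more from each other than those of PDGFA. The median SD (log2) of the 36 tested rows was 0.42 in EF and 0.27 in PDGFA, while all tested genes had medians of 0.38 and 0.17. The SD was larger in EF in 75% of the rows and in 81.3% of all tested genes. Mouse 69 had the highest EF value in 47.2% of the rows and the highest PDGFA value in 50%, beside 41.3% and 38.2% of all tested genes. These shares describe the libraries and are not particular to the receptors.

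The pathways around the receptors were described from lists of their suppliers, targets and partners, counted in the same fit and given no test of the list. Beside their counts stand the 21.8% higher, 18% lower and the median of -0.0095 over all tested genes, and a p in brackets after a change is its limma adjusted p. Hr, Per1, Klf9 and Pdk4 are each on 2 lists, and Fabp7, a listed PPAR target, is also 1 of the neural progenitor markers above. Of 10 tested genes that supply or clear retinoids, 5 rose and 1 fell (median log2 fold change 0.57, the same with Stra6 at its bound). Dhrs3, which reduces retinal to retinol, went from 2.83 ± 1.36 to 886.2 ± 183 (log2 fold change 7.91, adjusted p = 2.08e-05). Its EF values of 3.83, 3.38 and 1.28 rest on few reads. With 5 added to the counts in place of 1, its log2 fold change was 6.82. Rdh5, a retinol dehydrogenase, went from 107.2 ± 40.7 to 744.8 ± 69.9 (log2 fold change 2.84, 0.00027). Stra6, a retinol carrier receptor, had no read in EF; set against a floor of 3 reads over that group, its PDGFA mean was at least 34.6-fold higher. Aldh1a3, which makes retinoic acid, fell by 3.65 on the log2 scale (54.6, 85.6 and 248 in EF, 33.1, 3.82 and 2.69 in PDGFA); the log2 fold change was -3.04 without EF of mouse 69, -4.66 without PDGFA of mouse 62 and -3.05 without PDGFA of mouse 69. Its adjusted p of 0.0178 was 0.0523, 0.0638 and 0.0651 without EF of mouse 69 and PDGFA of mouse 68 or 69 (0.0016 to 0.136 over all alternatives). The count of risers was 3 without any one PDGFA library, and that of fallers 0 to 3 over single libraries left out.

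Of 7 genes of thyroid hormone supply and response, 1 rose and 2 fell (median log2 fold change -0.08). Hr, a corepressor known as a target of thyroid hormone receptors, rose from 134.1, 229.7 and 98.4 to 2292, 2231 and 2115 (log2 fold change 3.92, SE 0.30, adjusted p = 7.75e-05). The amino acid and hormone transporter Slc16a10 fell by 2.21 (0.0077). The count of fallers was 1 without EF of mouse 68 or 69 or without any one PDGFA library, and 0 without both libraries of mouse 68 or 69. Klf9, another known target, was not called (1335 ± 260 and 1248 ± 73.1).

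Of 17 glucocorticoid response genes 5 rose and 2 fell (median 0.15). The metallothioneins Mt2 and Mt1 rose by 2.62 and 1.46 (adjusted p = 0.0007 and 0.0033), and the kinase Sgk1, a target of both NR3C receptors, went from 563 ± 233 to 3653 ± 1050 (2.76, 0.0011). The phosphatase Dusp1 fell by 2.78 (0.000142) and the clock gene Per1 by 0.77 (0.0043), while the classical targets Fkbp5 and Tsc22d3 were not called, with log2 fold changes of -0.25 and -0.41. Among 16 targets of liver X receptors and enzymes of oxysterols 6 rose and 1 fell (median 0.44). Apoe, the lipid carrier, went from 2441, 5469 and 699.3 to 85604, 102780 and 144990, a change of 5.69 on the log2 scale (adjusted p = 0.00055) that was 6.37 without EF of mouse 68 and 4.89 without EF of mouse 69. Cyp46a1, which makes an oxysterol from cholesterol, rose by 3.13 (0.000204) and the phospholipid transfer protein Pltp by 2.19 (0.0016). Scd1, a fatty acid desaturase, fell by 1.91 (0.0311) with overlapping groups and in 2 of 3 pairs, and was not called without EF of mouse 68 or 69 or PDGFA of mouse 68 or 69 (0.0819 to 0.109; 0.0015 to 0.208 over all alternatives). No gene of that list was then called lower, and 3 were without EF of mouse 62.

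Of 20 PPAR targets 7 rose and 2 fell (median 0.50). Angptl4, a secreted inhibitor of lipoprotein lipase, went from 11.5, 51.8 and 3.84 to 1105, 1693 and 4295 (log2 fold change 7.09, adjusted p = 0.00069; 8.01 without EF of mouse 68 and 6.29 without EF of mouse 69). The fatty acid binding proteins Fabp7 and Fabp5 fell by 1.28 (0.0112) and 0.73 (0.044). Fabp5 lost its call under the replicate block of mice (0.0582), without EF of mouse 68 or 69 or without any one PDGFA library (0.0857 to 0.142; 0.0012 to 0.304 over all alternatives), leaving 1 faller with the block, and 4 genes rose without PDGFA of mouse 68 or 69.

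Of 20 clock partners 8 rose and 6 fell (median 0.25); without both libraries of mouse 68 the counts were 2 and 1, and without both of mouse 62 the fallers were 3. Dbp, an output factor of the clock, rose by 1.70 (adjusted p = 0.0017) and the repressor Cry2 by 0.93 (0.0025). Per1 fell by 0.77, Ciart by 1.47 (0.0068) and Bhlhe40 by 1.02 (0.0087). Of 27 coactivators and corepressors 4 rose and 3 fell (median -0.07): beside Hr these were Ncoa4 (0.68, 0.0064) and Ncoa1 (0.51, 0.0178) among the risers, and Ppargc1b (-1.95, 0.0037), Pprc1 (-1.20, 0.0113) and Tbl1x (-0.46, 0.0328) among the fallers. Ppargc1b and Pprc1 belong to the family of coactivators of the oestrogen-related receptors and other factors. Ppargc1a, of the same family, was not called (1280 ± 216 and 917 ± 326, log2 fold change -0.53, limma adjusted p = 0.164), and its groups overlapped. The remaining riser was Ncoa2 (0.37, 0.0466), named after its values were seen. With the mouse as a replicate block Ncoa1 (0.0526; 0.0027 to 0.172 over all alternatives), Ncoa2 (0.129; 0.0182 to 0.346) and Tbl1x (0.0784; 0.008 to 0.182) lost their calls, leaving 2 risers and 2 fallers. Ncoa1 was also not called without PDGFA of mouse 68 or 69 (0.0832 and 0.076), nor was Ncoa2 (0.199 and 0.0998), which left 2 risers, nor Tbl1x without any one PDGFA library (0.0955 to 0.117), and 5 genes fell without EF of mouse 62. Neither of 2 tested genes of vitamin D metabolism was called, Cyp27b1 with an adjusted p of 0.225 and Cyp2r1 with 0.281.

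**Figure D4:**
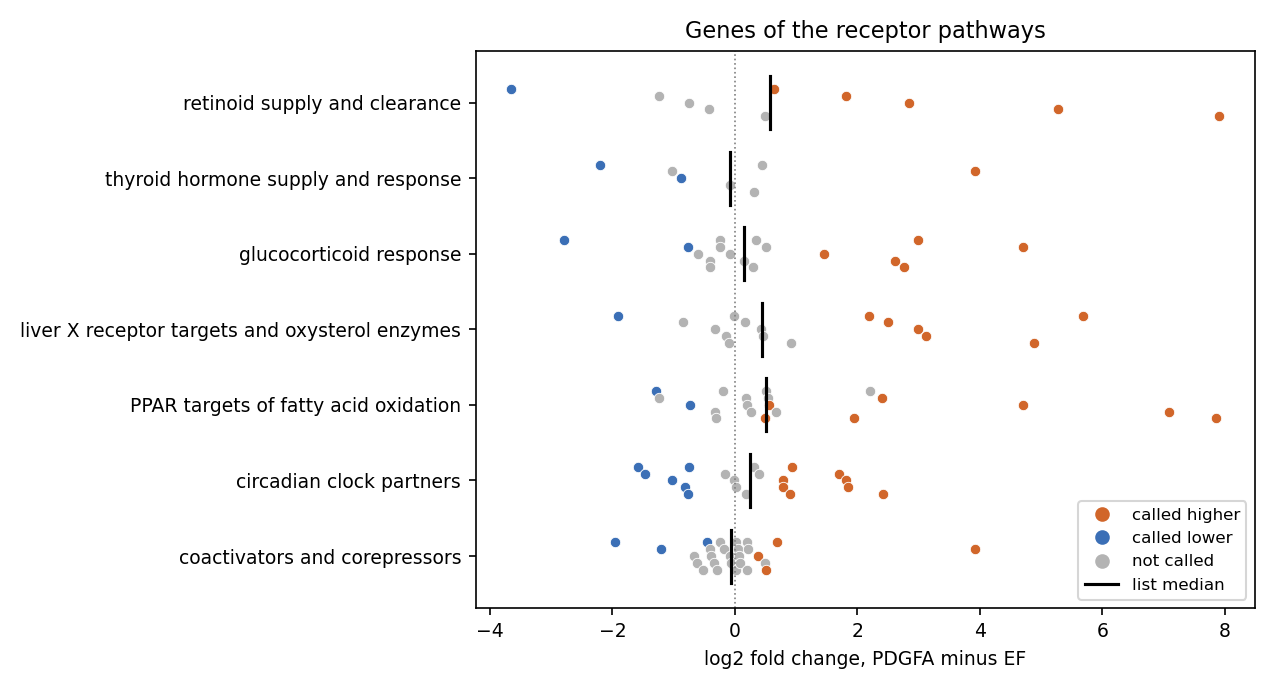
Log2 fold change (horizontal axis, PDGFA minus EF) of each tested gene of 7 pathway lists, 1 point per gene, coloured by its call, with the list median as a bar. The medians lie between -0.08 and 0.57, near the middle of points that reach 7.91 for Dhrs3 and -3.65 for Aldh1a3; the list of vitamin D metabolism is left out.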

How the data were processed

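The authors deposited 1 table of normalized signal, read counts per gene divided by a size factor per library; FastQC, STAR, DESeq2 and the build mm10 (GRCm38) are named per the submitters' processing notes, with annotation release and strand setting not given in the sources used here. All values were whole multiples of 1 read within 0.001 (100%), so whole reads were recovered (size factors 0.782 to 1.18); the lowest total per gene was 10 reads. Genes with a mean of at least 10 were tested on log2(normalized count + 1) with limma 3.58.1 in R 4.3.3 (trended eBayes, group as the only term, two-sided, Benjamini-Hochberg at 0.05). edgeR 4.0.16 and DESeq2 1.42.0 on the recovered reads, other pseudocounts (0.5 and 5), other filters (none, and a mean of at least 50), TMM scaling, the mouse as a block and each library or mouse left out, 17 in all, were alternatives. The scripts were tested on simulated data.

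Mouse numbers in the titles pair libraries of the same animal. Deviations from the group means correlated at -0.091, 0.11 and -0.11 within mice 62, 68 and 69. Between EF and PDGFA libraries of different mice the correlations were -0.123 to 0.162. Up to 3 called risers and 3 fallers per pathway list were named by smallest p; some members and listed genes are not reported here. The receptor family, as a set to describe, and the lists were chosen with earlier results of these data known, although rows were taken by symbol. Coordinates and exon lengths are from GENCODE M21 (40 of 40 members matched by symbol), and promoter windows from RefSeq on GRCm38.p6.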

Additional observations from a re-analysis of the deposited data

How the results depend on the processing

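With all libraries in limma 5 members were called higher and 5 lower, beside 3720 and 3076 over all genes. DESeq2 gave 8 higher and 7 lower, beside 3942 and 3746 over all genes. Leaving out libraries or mice gave 3 to 7 higher and 3 to 6 lower, and 1943 to 4271 higher and 1333 to 3818 lower over all genes. The lowest member counts came without the PDGFA library or both libraries of mouse 68. The cause was not tested. With the mouse as a replicate block 5 members were higher and 6 lower, beside 3213 and 2626 over all genes. Rxrb then lost its call (limma adjusted p = 0.0572), Rara (0.0498) and Rxrg (0.0102) gained one, and no other member's call changed. Thra, Pparg, Esrrb, Esrrg and Nr5a2 were called under every alternative that tested them; Pparg and Nr5a2 were not tested at a mean of at least 50.

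Uncalled members changed sign when libraries or mice were left out, over log2 fold changes of -0.27 to 0.23 for Nr6a1, -0.81 to 0.48 for Nr6a1os, -0.58 to 0.24 for Nr1h3, -0.32 to 0.64 for Nr2f2, -0.23 to 0.49 for Nr2e1, -0.059 to 0.077 for Nr2c1 (-0.00034 in DESeq2), -0.43 to 0.073 for Nr2c2ap, -0.48 to 0.31 for Rarb, -0.22 to 0.55 for Thrb, -0.33 to 0.56 for Rora, -0.52 to 0.081 for Rarg and -0.092 to 0.16 for Ppard. Few reads lay behind Vdr, Esr1, Esr2, Nr5a1, the EF values of Rxrg and Pparg and the PDGFA values of Nr5a2. On the pathway lists, few or none lay behind the EF values of Dhrs3 and Stra6. No scaling moved the median of all genes by over 0.1.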
